A study of Homo sapiens with 12 samples.

Results

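The mitochondrial carriers are the transporters that move metabolites across the inner mitochondrial membrane, and 55 of the 60666 genes listed for Huh7 cells were taken here as that set. The set holds every gene with a symbol of the form SLC25A followed by a number (48 genes), together with UCP2, MPC1, MPC2, MCU, VDAC1, VDAC2 and VDAC3 (7 genes), and no row with one of these symbols was described as a pseudogene. Each gene was included by its symbol. SLC25A17 belongs to the family by sequence but is known as a carrier of the peroxisome, and the 3 VDAC proteins form the channels of the outer mitochondrial membrane.

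RNA was sequenced from Huh7, an established hepatocellular carcinoma line, after lentiviral delivery of a control construct or of a short hairpin RNA against FAM111B (shFAM111B) and puromycin selection. There were 3 control libraries (NC) and 3 shFAM111B libraries (KD), and all of them came from the same line and carried a lentiviral construct. The labels do not say whether libraries of a group came from separate cultures, so each p-value measures the spread between these libraries only. Values are TPM, a share of each library corrected for transcript length, so levels of different genes can be compared within a library, whereas the sequencing depth is unknown and no counting interval can be given.

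Members of the SLC25 family share a fold built from a repeated pair of membrane helices and exchange solutes such as ADP, phosphate, citrate, amino acids and cofactors between the cytosol and the matrix. The pyruvate carrier, a pair of MPC1 and MPC2, and the calcium uniporter, whose pore is MCU, belong to other families of the same membrane. In liver cells these proteins serve the TCA cycle, fatty acid oxidation, ketone body synthesis, the urea cycle and haem synthesis.

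FAM111B itself was at 7.84, 8.29 and 7.99 TPM in the control libraries and at 0.96, 1.13 and 0.84 TPM in the shFAM111B libraries, a log2 fold change of -2.20 (SE 0.113, adjusted p = 6.09e-06, limma). The hairpin target is printed because it fixes which transcripts can pair with it, and the capitals mark bases 12 to 18, which pair with the seed of the antisense strand.
shFAM111B target: ctgcctagtgaTTCTCATt
The whole target was found in transcripts of FAM111B and of no other gene, and the longest run of it shared with any member was 11 nt, in SLC25A36. The hepatocyte genes of the line were present, with the summed TPM of 8 markers from 22182 to 22362 in control and from 37706 to 42644 in shFAM111B libraries. ALB and HNF4A were lower and AFP and APOA1 higher in the shFAM111B libraries. Stromal, leukocyte and endothelial markers, 3 genes each, summed to at most 13.2, 23.5 and 3.49 TPM in any library, with ranges of 6.52 to 9.05, 15.1 to 18.6 and 1.26 to 2.29 TPM in control and of 8.78 to 13.2, 21.9 to 23.5 and 2.15 to 3.49 TPM in shFAM111B libraries. COL1A2, CD68 and PECAM1 made up most of these sums, PTPRC was from 0.04 to 2.39 TPM in control and at most 0.02 TPM in shFAM111B libraries, and CD3E, CDH5 and VWF were at most 0.13 TPM. The part of these markers in the results was not tested. Transcripts of the mitochondrial chromosome made up 19.7% to 20.2% of TPM in control and 7.37% to 8.06% in shFAM111B libraries. The share left for all other genes was thus larger there, and counts after rescaling over nuclear protein-coding genes are given with the other scalings. The ratio of the chromosome's mean summed TPM, shFAM111B over control, was 0.382. Without a pair of its genes that are not named here, this ratio was 0.597.

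Of the 55 members, 46 reached 1 TPM in 3 or more libraries and were tested among 14394 genes, and 9 were not. SLC25A31, SLC25A47 and SLC25A52 were listed at 0 in every library, and SLC25A2, SLC25A12, SLC25A21, SLC25A34, SLC25A41 and SLC25A48 were at most 1.73 TPM in every library. At an adjusted p under 0.05 in limma, 7 members (15.2%) were higher and 25 (54.3%) were lower in shFAM111B libraries, against 21.1% and 50.9% of all genes tested. With a change of at least 2-fold added, no member was higher and 12 (26.1%) were lower, against 6.77% and 23.7% of all genes. SLC25A51 is counted as lower here and below, though it reached 1 TPM in control libraries only. No member reached a 2-fold rise at an unadjusted p under 0.05 either, and the largest rise was 0.93 on the log2 scale, but 2 to 5 members were higher by at least 2-fold under median-of-ratios, upper-quartile, quantile and median-centred scaling and 3 after removal of the length trend. Control and shFAM111B libraries did not overlap for 34 of the 46 tested members (73.9%), against 75.2% of all genes tested. The shares of members called were thus close to those of the whole table, and the median log2 fold change was -0.27 for the tested members and -0.36 for all genes tested.

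**Figure D1:**
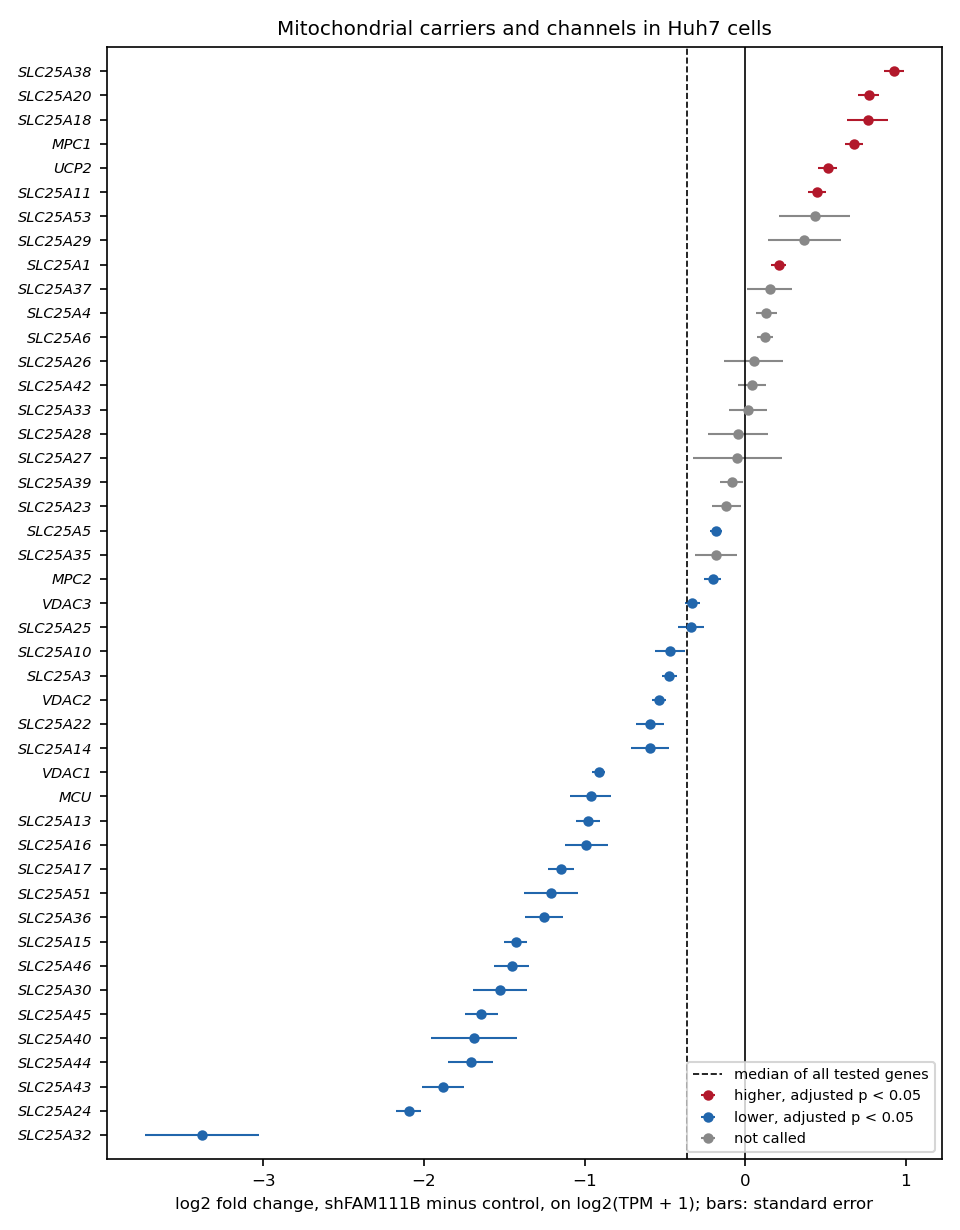
Log2 fold change (shFAM111B minus control, on log2(TPM + 1)) of 45 of the 46 tested members, with standard errors as bars and the median of all tested genes (-0.36) as a dashed line. The 7 members called higher lie between 0.21 and 0.93, and SLC25A32 lies lowest at -3.38.

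The split between directions depended on how libraries were scaled. Under median-of-ratios scaling 18 members were higher and 16 lower, against 35.8% and 35.2% of all genes. Upper-quartile scaling gave 18 and 17 members against 34.3% and 36.4% of genes, and quantile normalization gave 16 and 21 members against 32.5% and 36.8%. Subtracting each library's median gave 23 and 16 members against 41.6% and 29.4%, while rescaling over nuclear protein-coding genes gave 6 and 27 members against 18.1% and 55.0%. Removing the trend of fold change with transcript length gave 16 and 21 members against 30.8% and 33.8% of genes. Members called higher thus made up 21.9% of the member calls with the deposited TPM and between 18.2% and 59.0% under these settings. The median of the members lay above that of all genes by 0.096 with the deposited TPM and by 0.13 under median-of-ratios scaling, and below it by a difference of -0.10 after the length trend was removed.

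A total of 22 members had the same call with the deposited TPM and under all 5 other scalings. The 6 that were higher were SLC25A38, SLC25A20, SLC25A18, MPC1, UCP2 and SLC25A11. The 16 that were lower were VDAC1, MCU, SLC25A13, SLC25A16, SLC25A17, SLC25A51, SLC25A36, SLC25A15, SLC25A46, SLC25A30, SLC25A45, SLC25A40, SLC25A44, SLC25A43, SLC25A24 and SLC25A32. In contrast, MPC2 and SLC25A5 were lower with the deposited TPM and higher under median-of-ratios, upper-quartile and median-centred scaling, and VDAC3 turned in the same way under median-centring.

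**Figure D2:**
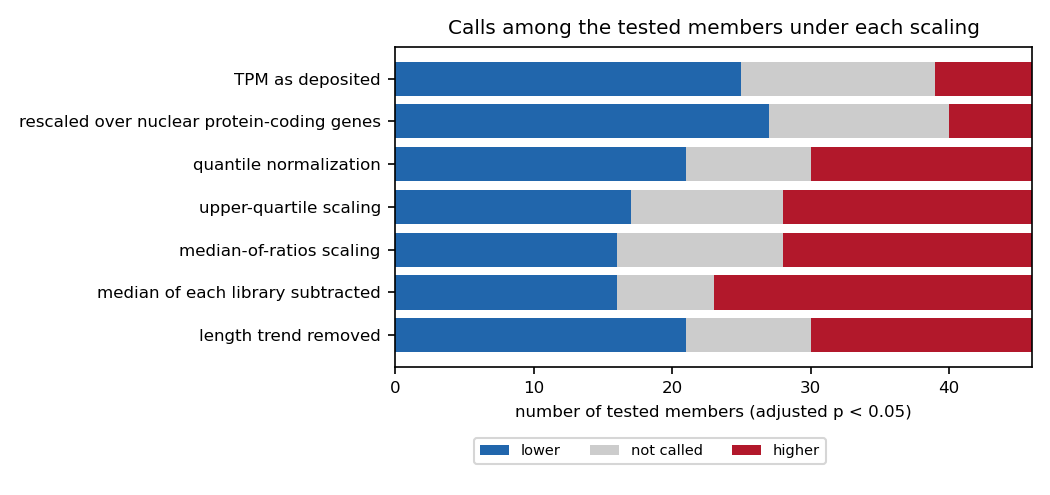
Number of the 46 tested members called lower, not called or called higher (adjusted p under 0.05) with the TPM as deposited, under 5 other scalings and after removal of the length trend. Between 16 and 27 members are lower and between 6 and 23 are higher.

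The carriers of adenine nucleotides and phosphate supply the ATP synthase with its substrates and export ATP. Of 7 tested members, none was higher and 4 were lower (1 and 4 at an unadjusted p), with a median log2 fold change of -0.18 that became 0.27 under median-of-ratios scaling, where 4 were higher and 1 was lower. Counts of this and the following role groups stand beside 21.1% higher and 50.9% lower of all genes tested. Under median-of-ratios scaling these shares were 35.8% and 35.2%. SLC25A3, the phosphate carrier, was the most abundant member and held 34.2% of all member TPM in control and 30.4% in shFAM111B libraries. Its TPM was 1173.84, 1093.26 and 1164.26 in control and 810.24, 855.84 and 807.07 in shFAM111B libraries, without overlap (log2 fold change -0.47, SE 0.047, adjusted p = 9.44e-05). This call was lost under median-of-ratios, upper-quartile and median-centred scaling, and SLC25A3 was higher (log2 fold change 0.33, adjusted p = 0.000603 in limma) after removal of the length trend. That trend used the longest annotated transcript, 6087 nt for SLC25A3, whereas its principal transcript has 1678 nt. The part of this choice of transcript in the turn was not tested.

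The ADP/ATP carriers, which exchange matrix ATP for cytosolic ADP, are encoded by SLC25A4, SLC25A5, SLC25A6 and the germline form SLC25A31. SLC25A5, the form of dividing cells, was at 415.67, 409.03 and 420.52 TPM in control and at 365.82, 366.39 and 365.99 TPM in shFAM111B libraries (log2 fold change -0.18, adjusted p = 0.00306 in limma). SLC25A6 was at 108.38, 110.75 and 114.76 TPM against 120.83, 116.96 and 125.86 TPM, with groups that did not overlap but a call that missed the threshold (log2 fold change 0.12, adjusted p = 0.0575 in limma). SLC25A4, the form of heart and skeletal muscle, was at 13.65, 13.63 and 13.41 TPM against 15.01, 14.88 and 14.92 TPM (adjusted p = 0.112 in limma). Every library kept the order SLC25A5, SLC25A6, SLC25A4. Within their sum, SLC25A5 went from 76.9% ± 0.372 to 72.9% ± 0.660, SLC25A6 from 20.6% ± 0.401 to 24.1% ± 0.681 and SLC25A4 from 2.51% ± 0.0600 to 2.97% ± 0.0262 (SD, n = 3 libraries a group). A factor applied to a whole library does not change these shares.

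The ATP-Mg/phosphate carriers adjust the adenine nucleotide content of the matrix and sense cytosolic calcium. SLC25A24 was at 24.13, 21.88 and 22.94 TPM in control and at 4.52, 4.74 and 4.58 TPM in shFAM111B libraries, 4.98-fold lower by the means and without overlap (log2 fold change -2.09, SE 0.0788, adjusted p = 2.91e-06). Its paralogue SLC25A23 ranged from 22.8 to 24.3 TPM in control and from 19.2 to 23.3 TPM in shFAM111B libraries, which overlapped (adjusted p = 0.274, limma). The ratio of SLC25A23 to SLC25A24 was therefore near 1 in control (1.01, 1.04 and 1.05) and 5.16, 4.05 and 5.04 in shFAM111B libraries. SLC25A25 was lower (log2 fold change -0.34, adjusted p = 0.00739), a call lost under 4 of the 5 other scalings and after removal of the length trend.

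The uncoupling proteins and their relatives carry anions or protons across the inner membrane. Of 4 tested members, 1 was higher and 2 were lower, and the median of -0.32 turned to 0.07 under median-of-ratios scaling. UCP2, an uncoupling protein also linked to metabolite export from the matrix, was at 23.48, 23.99 and 24.44 TPM in control and at 35.43, 35.55 and 33.00 TPM in shFAM111B libraries (log2 fold change 0.51, SE 0.0596, adjusted p = 0.000202). All shFAM111B libraries lay above all controls, a 1.45-fold rise of the mean. SLC25A30 fell to 1.06 ± 0.245 TPM from 4.97 ± 1.01 TPM (SD, n = 3 each, log2 fold change -1.53, limma adjusted p = 0.000154). SLC25A14 was lower (log2 fold change -0.59, adjusted p = 0.00296) with the deposited TPM, a call lost under the same 4 scalings as that of SLC25A25, and SLC25A27, at 2.91 to 7.46 TPM in control, was not called.

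Carriers of pyruvate and of di- and tricarboxylates connect glycolysis and lipid synthesis with the TCA cycle. Of 6 tested members, 3 were higher and 2 lower, and under median-of-ratios scaling 4 were higher and none lower. MPC1 was at 89.20, 92.53 and 85.29 TPM in control and at 137.32, 140.44 and 150.37 TPM in shFAM111B libraries (log2 fold change 0.67, SE 0.0555, adjusted p = 3.8e-05). Its obligate partner MPC2 was at 170.73, 168.06 and 165.98 TPM against 143.82, 139.79 and 155.23 TPM (log2 fold change -0.20, adjusted p = 0.00986). The pair thus changed from about 1 MPC1 transcript for 2 of MPC2 to near equal amounts, with a ratio of 0.522, 0.551 and 0.514 in control and of 0.955, 1.00 and 0.969 in shFAM111B libraries. MPC2 overlaps DCAF6 on the opposite strand, and whether reads were counted by strand is not given in the sources used here.

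SLC25A11, the 2-oxoglutarate carrier of the malate-aspartate shuttle, was at 53.46, 52.32 and 57.36 TPM in control and at 74.66, 72.48 and 76.37 TPM in shFAM111B libraries (log2 fold change 0.45, SE 0.0552, adjusted p = 0.000273). SLC25A1, the citrate carrier that provides acetyl units for lipid synthesis, rose by less, from 87.1 ± 2.96 to 101 ± 0.434 TPM (SD, n = 3 each, log2 fold change 0.21, limma adjusted p = 0.00481). SLC25A1 was no longer called after rescaling over nuclear protein-coding genes or after removal of the length trend. SLC25A10, the dicarboxylate carrier, went the other way, from 27.9 ± 2.03 to 20.0 ± 2.03 TPM (SD, n = 3 each, limma adjusted p = 0.00316), a call lost under median-of-ratios, upper-quartile, quantile and median-centred scaling. The ratio of SLC25A1 to SLC25A10 was 3.11, 3.27 and 3.0 in control and 5.14, 5.59 and 4.54 in shFAM111B libraries.

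Carriers of amino acids and carnitine held the largest rises as well as several of the largest falls. Of 9 tested members, 3 were higher and 5 lower, and under median-of-ratios scaling 4 were higher and 4 lower. SLC25A38, which imports the glycine used for haem synthesis, was at 21.65, 20.95 and 22.47 TPM in control and at 44.00, 40.41 and 42.03 TPM in shFAM111B libraries (log2 fold change 0.93, SE 0.0617, adjusted p = 1.52e-05). SLC25A20, the carnitine-acylcarnitine carrier of fatty acid oxidation, was at 52.11, 47.63 and 45.39 TPM against 80.53, 86.03 and 82.43 TPM (log2 fold change 0.77, SE 0.065, adjusted p = 4.29e-05). SLC25A18, a glutamate carrier, was at 4.03, 3.65 and 4.62 TPM against 8.77, 7.16 and 7.05 TPM (log2 fold change 0.76, SE 0.127, adjusted p = 0.00128). None of these 3 genes overlapped between groups, and the means rose 1.94-, 1.72- and 1.87-fold.

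The other glutamate carrier, SLC25A22, was lower (12.9 ± 0.831 to 8.24 ± 0.483 TPM, SD, n = 3 each, limma adjusted p = 0.000725), a call that was lost under median-of-ratios, upper-quartile, quantile and median-centred scaling. SLC25A44, a carrier of branched-chain amino acids, was at 22.02, 19.13 and 22.00 TPM in control and at 7.16, 4.78 and 5.49 TPM in shFAM111B libraries (log2 fold change -1.71, SE 0.141, adjusted p = 3.84e-05). SLC25A45, which is grouped with the amino acid carriers, was at 18.55, 15.31 and 18.26 TPM against 4.56, 5.03 and 5.02 TPM (log2 fold change -1.64, SE 0.103, adjusted p = 1.19e-05). Both were more than 3-fold lower by their means and did not overlap. Removal of the length trend brought their log2 fold changes to -0.86 and -0.79. That trend used their longest transcripts of 6952 and 7118 nt, whereas their principal transcripts have 3482 and 2286 nt. SLC25A15, the ornithine carrier of the urea cycle, fell from 20.1 ± 0.619 to 6.85 ± 0.0929 TPM (SD, n = 3 each, limma adjusted p = 5.6e-06). SLC25A13, the liver form of the aspartate-glutamate carrier known as citrin, fell from 54.0 ± 1.19 to 26.9 ± 2.46 TPM (SD, n = 3 each, limma adjusted p = 2.67e-05). Its paralogue SLC25A12 was at most 0.39 TPM in every library, so citrin made up nearly all transcripts of the pair in both groups.

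**Figure D3:**
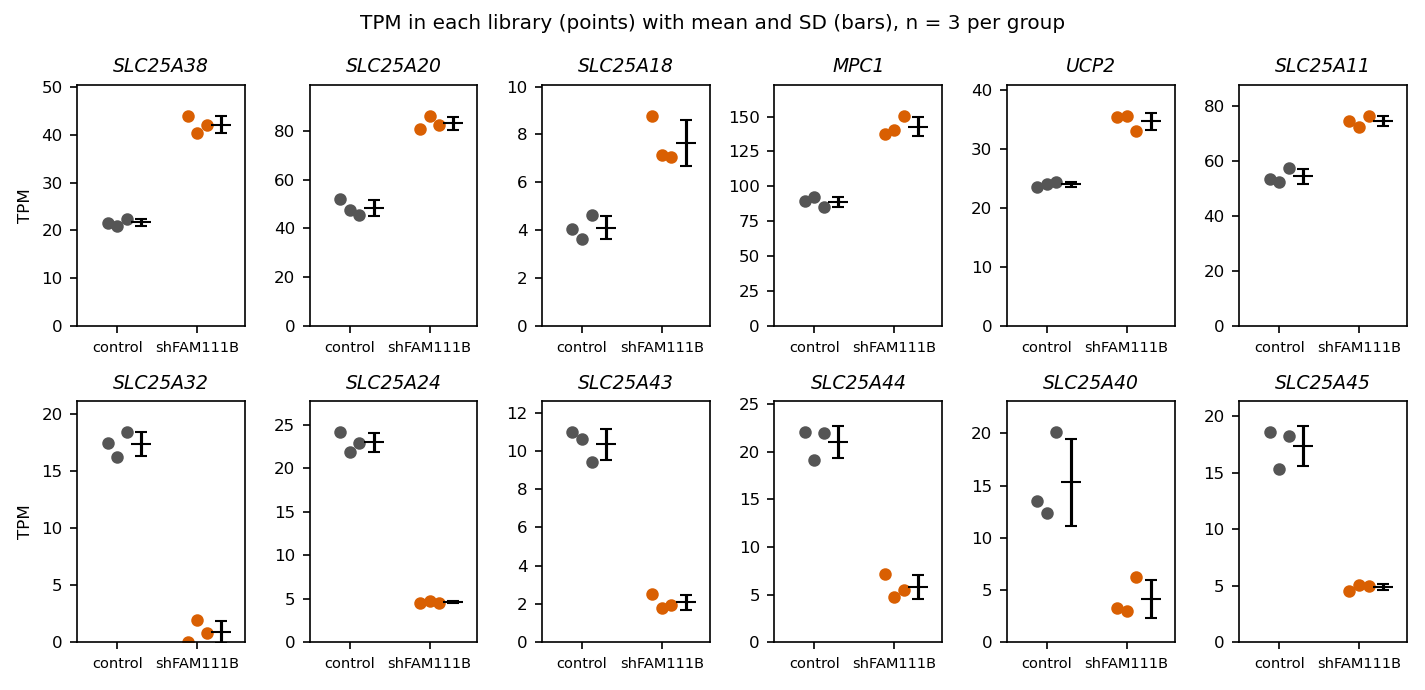
TPM of the 6 members with the largest rises (upper row) and the 6 with the largest falls (lower row) in each library, as points, with the mean and SD of the 3 libraries of each group as bars. The groups do not overlap for any of the 12 genes, which were chosen for their large called changes. Of all genes tested, 75.2% did not overlap either.

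Of 13 tested carriers of cofactors, nucleotides, glutathione and iron, none was higher and 6 were lower (also 0 and 6 at an unadjusted p in limma), and under median-of-ratios scaling 4 were higher and the number lower was again 6. SLC25A32, a carrier of folate and FAD, had the largest fall of all members, from 17.52, 16.29 and 18.42 TPM in control to 0.01, 1.96 and 0.84 TPM in shFAM111B libraries. The log2 fold change was -3.38 (SE 0.357, adjusted p = 0.000124), and this SE was the largest among the called members. SLC25A32 overlaps AC012213.5 on the same strand and DCAF13 on the opposite strand. SLC25A40, a glutathione carrier, was at 13.54, 12.37 and 20.09 TPM against 3.27, 2.98 and 6.22 TPM (log2 fold change -1.69, SE 0.27, adjusted p = 0.00104), and it overlaps DBF4 on the opposite strand. Its paralogue SLC25A39 was at 91.9 ± 4.81 and 86.8 ± 7.0 TPM (SD, n = 3 each, limma adjusted p = 0.334).

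The pyrimidine nucleotide carriers split in the same manner. SLC25A36 fell from 9.56 ± 0.975 to 3.43 ± 0.350 TPM (SD, n = 3 each, limma adjusted p = 7.12e-05), while SLC25A33 was at 13.6 ± 2.10 and 13.7 ± 0.849 TPM (SD, n = 3 each, limma adjusted p = 0.896). SLC25A51, the mitochondrial NAD carrier, fell to 0.523 ± 0.10 from 2.55 ± 0.592 TPM (SD, n = 3 each, limma adjusted p = 0.000532). It was under 1 TPM in every shFAM111B library (0.62, 0.53 and 0.42 TPM) and passed the filter through the controls alone. SLC25A17, the peroxisomal carrier of coenzyme A and related cofactors, fell 2.32-fold (limma adjusted p = 2.01e-05), and SLC25A16, which has been linked to coenzyme A transport, fell 2.20-fold (limma adjusted p = 0.000435), a call lost after removal of the length trend. The iron importers SLC25A28 (mitoferrin-2) and SLC25A37 (mitoferrin-1), the S-adenosylmethionine carrier SLC25A26 and the coenzyme A carrier SLC25A42 were not called, with adjusted p from 0.354 to 0.838 in limma.

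Of the 5 proteins of the outer membrane and of calcium uptake, all were lower with the deposited TPM, against 50.9% of all genes tested. All 5 were also lower after quantile normalization (36.8% of genes), rescaling over nuclear protein-coding genes (55%) and removal of the length trend (33.8%). Under median-of-ratios scaling 3 were lower (35.2% of genes) and under upper-quartile scaling 4 (36.4%). Median-centring left 3 lower (29.4% of genes) and turned VDAC3 higher. VDAC1 was at 238.18, 241.21 and 238.10 TPM in control and at 125.97, 130.58 and 123.25 TPM in shFAM111B libraries (log2 fold change -0.91, SE 0.0416, adjusted p = 4.24e-06). VDAC2 was at 206.09, 199.82 and 198.98 TPM against 134.57, 137.58 and 143.78 TPM (log2 fold change -0.54, SE 0.0446, adjusted p = 3.93e-05). VDAC3 was at 188.40, 181.64 and 184.65 TPM against 147.60, 152.25 and 140.97 TPM (log2 fold change -0.33, SE 0.0461, adjusted p = 0.000518). VDAC1 was therefore the most abundant of the 3 channels in every control library and the least abundant in every shFAM111B library. Its share of their sum went from 38.2% ± 0.549 to 30.7% ± 0.446, that of VDAC2 from 32.2% ± 0.307 to 33.6% ± 1.39 and that of VDAC3 from 29.5% ± 0.330 to 35.6% ± 0.946 (SD, n = 3 libraries a group). Listed pseudogene copies of VDAC1 had 3.95% of its TPM in control and 0.951% in shFAM111B libraries.

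MCU, the pore of the calcium uniporter, was at 31.40, 27.83 and 27.44 TPM in control and at 11.75, 16.51 and 15.14 TPM in shFAM111B libraries, without overlap (log2 fold change -0.96, SE 0.128, adjusted p = 0.00041). SLC25A46, an outer membrane protein linked to mitochondrial fission and fusion, fell from 12.3 ± 0.923 to 3.87 ± 0.435 TPM (SD, n = 3 each, limma adjusted p = 2.52e-05). Of the 2 members without a settled substrate, SLC25A43 was at 10.96, 10.60 and 9.44 TPM against 2.54, 1.80 and 1.93 TPM (log2 fold change -1.88, SE 0.129, adjusted p = 1.73e-05), and SLC25A53 was not called (adjusted p = 0.118, limma).

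Ratios between related members were taken within each library, where a factor applied to the whole library cancels but a trend with transcript length does not. Of 12 pairs, 10 had groups that did not overlap (75.2% of single genes tested did not overlap either, and the share over other ratios was not computed), each at p = 0.1 in the exact two-sided permutation test, which is the smallest p that 3 against 3 libraries allow, and at 0.12 after adjustment over the 12 pairs. The largest differences were a 4.57-fold higher ratio of SLC25A23 to SLC25A24, a 3.60-fold lower ratio of SLC25A40 to SLC25A39 and a 2.83-fold higher ratio of SLC25A33 to SLC25A36. Removal of the length trend changed the log2 fold changes of these members. They went from -0.12 to 0.34 for SLC25A23, -2.09 to -1.47 for SLC25A24, -1.69 to -1.10 for SLC25A40 and -0.084 to 0.033 for SLC25A39. SLC25A33 went from 0.019 to 0.57 and SLC25A36 from -1.25 to -0.47. The ratio of MPC1 to MPC2 was 1.85-fold higher (a log2 difference of 0.88, which removal of the length trend changed to 0.52) and that of SLC25A1 to SLC25A10 1.62-fold higher. Within the urea cycle pair, SLC25A15 was 1.46-fold lower relative to SLC25A13. The ratios of SLC25A6 and SLC25A4 to SLC25A5 were 1.23- and 1.25-fold higher, that of VDAC3 to VDAC2 was 1.16-fold higher and that of VDAC1 to VDAC2 1.30-fold lower. Removal of the length trend changed the log2 difference from 0.30 to 0.60 for SLC25A6 to SLC25A5, from 0.32 to 1.20 for SLC25A4 to SLC25A5, from -0.55 to -1.07 for SLC25A15 to SLC25A13, from -0.38 to -0.23 for VDAC1 to VDAC2 and from 0.21 to 0.13 for VDAC3 to VDAC2. Groups overlapped for SLC25A12 to SLC25A13 (exact permutation p = 0.2) and for SLC25A28 to SLC25A37 (exact permutation p = 0.6), where removal of the length trend changed the log2 difference from -0.23 to -1.09.

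**Figure D4:**
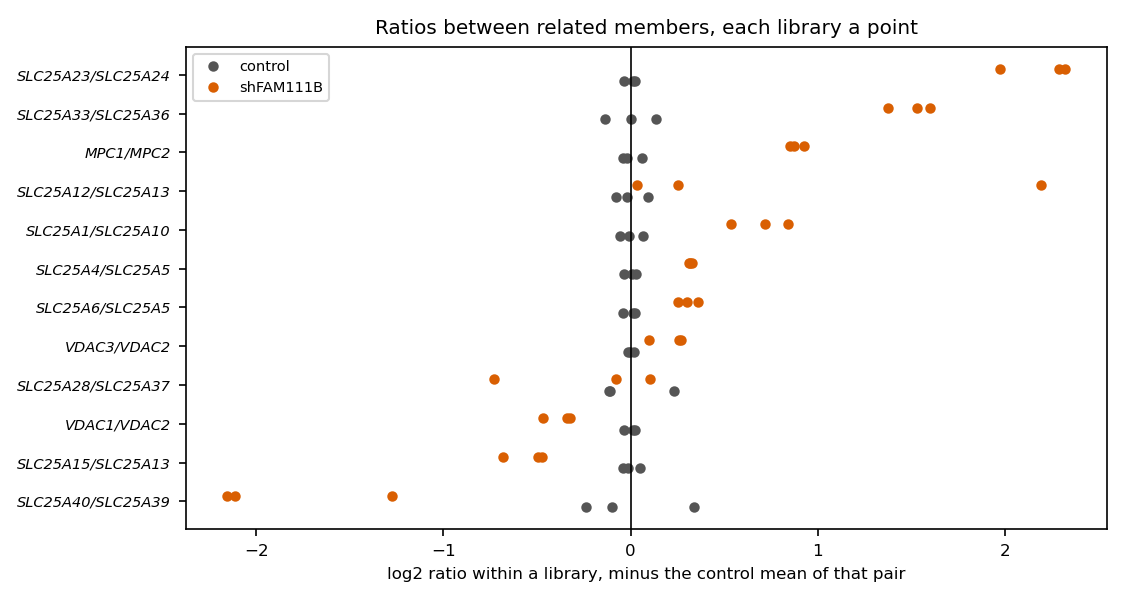
Log2 ratio of each of 12 pairs of related members in each library, after subtraction of the pair's control mean, with control libraries in grey and shFAM111B libraries in orange. The groups do not overlap for 10 pairs, and 1 shFAM111B library stands apart for SLC25A12 to SLC25A13, where SLC25A12 is at most 0.39 TPM.

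The summed TPM of all members was 3346 ± 64.5 in control and 2709 ± 26.6 in shFAM111B libraries (SD, n = 3 each), a ratio of 0.810 (exact permutation p = 0.1, the smallest possible). Without SLC25A3 the ratio was 0.856. The direction of the sum turned with scaling, as it was 1.11 under median-of-ratios and 1.08 under upper-quartile scaling, but 0.742 after rescaling over nuclear protein-coding genes. The summed ADP/ATP carriers were at 540 ± 7.88 and 502 ± 4.30 TPM and the summed VDACs at 626 ± 6.06 and 412 ± 7.12 TPM (SD, n = 3 each).

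Transcript length was set beside the changes. By the GENCODE v29 annotation (GRCh38), the 7 members called higher had 3′ UTRs of 340 to 831 nt. Among the 24 tested members with a 3′ UTR over 1000 nt, none was higher (also 0 at an unadjusted p in limma) and 15 (62.5%) were lower, against 9.78% and 71.1% of the 6082 tested genes with such a 3′ UTR. Median log2 fold changes were -0.13, -0.59 and -0.99 for the 22, 13 and 11 members with 3′ UTRs up to 1000 nt, from 1000 to 2000 nt and over 2000 nt, and -0.11, -0.65 and -0.87 for all genes in the same classes. The members thus followed the gradient of the whole table. Across the 46 members Spearman's rho of log2 fold change with 3′ UTR length was -0.23 and with the longest transcript -0.30, against -0.40 over 12036 genes and -0.46 over 14251 genes, and these points share the same libraries. Coding length had a median of 940.5 nt over the tested members, of 930 nt among those called higher and of 945 nt among those called lower.

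**Figure D5:**
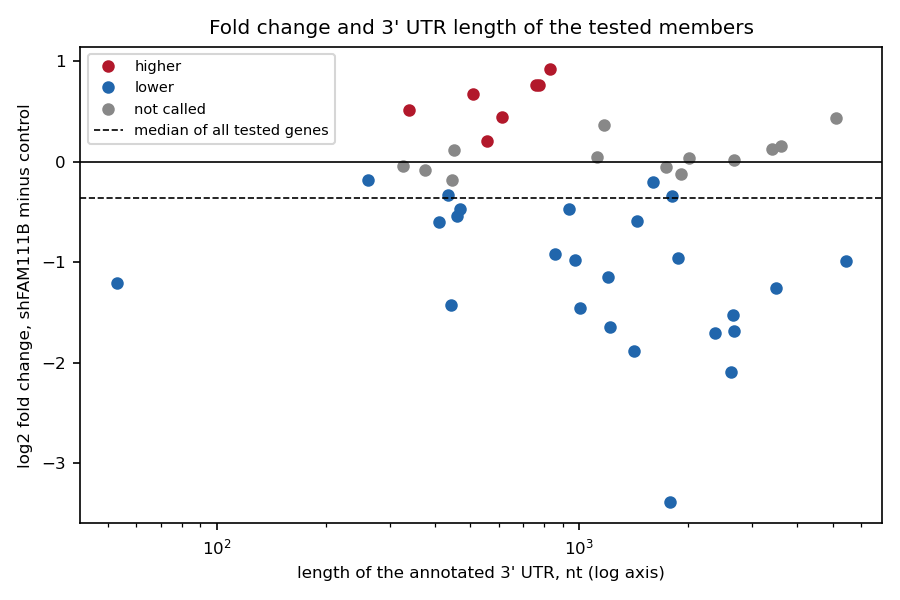
Log2 fold change of 45 of the 46 tested members against the length of the annotated 3′ UTR (nt, log axis), coloured by call, with the median of all tested genes as a dashed line. The 7 members called higher lie between 340 and 831 nt, whereas members called lower span 53 to 5431 nt.

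Promoter windows (300 bases around each start, RefSeq, GRCh38.p14) were matched for 46 members, which are not the same set as the 46 tested members. This set includes SLC25A31, SLC25A47 and SLC25A52, listed at 0 TPM in every library, and lacks some members called lower. The letters CCGGAAG, a core of ETS factor sites, were found on either strand in 13 members (28.3%) and in 12.2% of 27305 genes. CACGTG, the E-box bound by MYC and related factors, was found in 10 members (21.7%) and 8.78% of genes, and the consensus site of NRF1 (GCGCA and GCGC with any 1 base between them) in 6 members (13.04%) and 6.98% of genes. The 27305 genes are all genes with a window, not only the 14394 tested, so they were not matched to the members in expression. A gene was counted if any of its windows held the letters, and the number of windows per gene was not matched. The differences between these shares were not tested. Matches of the 3 motifs did not overlap each other in the windows printed here. The ETS letters were in 2 of 7 members called higher and in 8 of 21 members called lower with a window, so they were found in both directions of change. The 2 members with the largest rises were set beside 2 with large falls, which are not the 2 largest falls among all members. They were chosen among members with a single annotated window, though not every such member was considered. The windows of these 4 members are shown with matches in capitals and each sequence 5′ to 3′ on the strand of its gene. They lie at chr3:39383120-39383419 (plus strand, SLC25A38), chr3:48898833-48899132 (minus strand, SLC25A20), chrX:119399086-119399385 (plus strand, SLC25A43) and chr1:156193854-156194153 (plus strand, SLC25A44).
SLC25A38: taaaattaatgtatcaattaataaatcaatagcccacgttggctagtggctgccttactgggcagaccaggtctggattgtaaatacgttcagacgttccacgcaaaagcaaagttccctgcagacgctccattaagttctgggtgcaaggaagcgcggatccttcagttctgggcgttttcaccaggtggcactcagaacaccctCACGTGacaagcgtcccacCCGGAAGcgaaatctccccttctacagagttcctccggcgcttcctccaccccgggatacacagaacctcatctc
SLC25A20: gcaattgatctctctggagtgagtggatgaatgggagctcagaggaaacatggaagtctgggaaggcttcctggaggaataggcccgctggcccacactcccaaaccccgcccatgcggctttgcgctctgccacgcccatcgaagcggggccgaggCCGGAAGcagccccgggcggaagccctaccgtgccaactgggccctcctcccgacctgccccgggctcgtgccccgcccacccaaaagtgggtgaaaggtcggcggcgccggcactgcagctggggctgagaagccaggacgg
SLC25A43: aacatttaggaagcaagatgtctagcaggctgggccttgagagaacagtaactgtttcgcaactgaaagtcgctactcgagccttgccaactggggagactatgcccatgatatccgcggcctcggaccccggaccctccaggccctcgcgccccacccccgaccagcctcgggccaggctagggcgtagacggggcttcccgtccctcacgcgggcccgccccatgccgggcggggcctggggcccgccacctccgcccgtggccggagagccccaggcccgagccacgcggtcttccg
SLC25A44: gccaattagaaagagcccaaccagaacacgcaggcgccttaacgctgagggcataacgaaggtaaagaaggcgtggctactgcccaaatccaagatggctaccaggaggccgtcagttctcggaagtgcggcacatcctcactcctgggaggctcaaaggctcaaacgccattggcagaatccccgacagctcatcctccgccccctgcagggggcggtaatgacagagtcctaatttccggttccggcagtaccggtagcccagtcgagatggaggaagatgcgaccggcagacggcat
The window of SLC25A38 held the E-box letters at bases 207 to 212 and the ETS letters at bases 226 to 232, and that of SLC25A20 held the ETS letters at bases 158 to 164. None of the 3 motifs was found in the windows of SLC25A43 and SLC25A44. The gene start in GENCODE v29 lies within the windows of SLC25A38, SLC25A20 and SLC25A44. That of SLC25A43 (chrX:119399060) lies before its window, so the bases upstream of that start were not searched there. All 4 windows were rich in G and C (51.3%, 67.0%, 68.7% and 58.3%), with 15, 21, 27 and 19 CpG dinucleotides.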

How the data were processed

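Per the labels, polyadenylated RNA of Huh7 cells was sequenced on an Illumina platform with a stranded mRNA kit, while the paper names another Illumina kit. The authors deposited 1 table for Huh7 with TPM per library, and this is the unit used here. It also holds group means and the authors' own fold changes, p-values and adjusted p-values, none of which was used. The submitters' processing notes name RSEM, DESeq2 and hg38. How reads were aligned, counted and assigned by strand is not given in the sources used here. TPM hold no depth, and Hep3B, the other cell line of the series, is not analysed here.

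The symbol rule used no measured value, but the gene family and the lists were chosen with earlier results of these data known. The 14394 genes that reached 1 TPM in 3 or more libraries were compared on log2(TPM + 1) with limma 3.58.1 in R 4.3.3 (lmFit and eBayes with trend, no covariates), and p-values were adjusted by Benjamini-Hochberg over all genes tested. A fold change is on this scale and understates the change of low genes. Groups follow the labels. The values of 1 member are not reported here, though it is included in the counts. A call is an adjusted p under 0.05. Ratios and sums were tested with exact two-sided permutation tests over libraries. Named members were all members by role, with every library printed for the ADP/ATP carriers, UCP2, MPC1, MPC2, MCU, the VDACs, the 5 most abundant members, and the 6 largest rises and 6 largest falls. From each list of partner genes, the 2 largest rises and 2 largest falls that were called are named. The fit was tested on simulated data in which 200 genes were changed. No shift of whole libraries was simulated, so that test cannot speak to the choice of scaling. Libraries of a group had Pearson correlations of 0.969 to 0.984 over log2 values and fewer than 1% identical values, so none was treated as a duplicate.

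Alternatives were median-of-ratios, upper-quartile, quantile and median-centred scaling, rescaling over nuclear protein-coding genes, a pseudocount of 0.1, no filter, at least 1 TPM in every library, the replicate number as a block, removal of a loess trend with transcript length (span 0.75) and leaving out each library. The length trend was fitted on the longest annotated transcript of each gene. Comparing shFAM111B replicate 3 alone with the controls was added after seeing the data. Positions and lengths came from GENCODE v29, which shares 58420 identifiers (96.3%) with the table. Of the members, 16 overlap another gene on the same strand and 27 on the opposite strand, and 18 have listed pseudogene copies, 62 in all. Python 3.11.15 was used for tables and figures.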

Additional observations from a re-analysis of the deposited data

How the results depend on the processing

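The replicate number as a block, no filter on TPM, a pseudocount of 0.1 and at least 1 TPM in every library changed no call among those of the 46 members they tested, and the log2 fold change of FAM111B stayed below zero wherever it was tested. Without a filter SLC25A34 was also tested and was lower (log2 fold change -0.51, limma adjusted p = 0.0314). The median log2 fold change of the members was -0.19 without a filter and -0.18 with at least 1 TPM in every library, where fewer members were tested. Same-numbered control and shFAM111B libraries had correlated deviations of only 0.054, 0.0349 and 0.0908, so the numbers were not taken to pair libraries, and the replicate block gave 7 members higher and 25 lower, as without it. Under median-of-ratios scaling, 18 members were higher, 16 members were lower, 4 members were higher by at least 2-fold, the median log2 fold change of the members was 0.16 and the log2 ratio of the summed TPM was 0.15. It gave 8 higher among the TIM22 route, 3 lower among the calcium uniporter partners, 5 higher and 3 lower among the other transporters, and 1 higher and 0 lower among the VDAC and ADP/ATP carrier partners. The log2 fold change changed sign for MPC2 (0.25), SLC25A23 (0.32), SLC25A25 (0.079), SLC25A27 (0.33), SLC25A28 (0.39), SLC25A35 (0.19), SLC25A39 (0.37), SLC25A5 (0.27) and VDAC3 (0.12). Under upper-quartile scaling, 18 members were higher, 4 members were higher by at least 2-fold, the median log2 fold change of the members was 0.12 and the log2 ratio of the summed TPM was 0.11. It gave 7 higher among the TIM22 route, 4 higher and 3 lower among the other transporters, and 1 higher and 0 lower among the VDAC and ADP/ATP carrier partners. A change of sign was found for MPC2 (0.21), SLC25A23 (0.28), SLC25A25 (0.042), SLC25A27 (0.29), SLC25A28 (0.35), SLC25A35 (0.16), SLC25A39 (0.33), SLC25A5 (0.23) and VDAC3 (0.082). After quantile normalization, 16 members were higher, 2 members were higher by at least 2-fold and the median log2 fold change of the members was -0.038. It gave 8 higher among the TIM22 route, 3 lower among the calcium uniporter partners, 4 higher and 3 lower among the other transporters, and 2 lower among the VDAC and ADP/ATP carrier partners. Signs turned for SLC25A23 (0.34), SLC25A25 (0.19), SLC25A27 (0.42), SLC25A28 (0.42), SLC25A35 (0.27) and SLC25A39 (0.017). With each library's median subtracted, 23 members were higher, 16 members were lower, 5 members were higher by at least 2-fold, 6 members were lower by at least 2-fold and the median log2 fold change of the members was 0.27. It gave 8 higher among the TIM22 route, 3 lower among the calcium uniporter partners, 5 higher and 3 lower among the other transporters, 2 higher and 0 lower among the VDAC and ADP/ATP carrier partners, and 8 higher and 10 lower among the shuttle enzymes. The sign turned for MPC2 (0.33), SLC25A10 (0.066), SLC25A23 (0.42), SLC25A25 (0.20), SLC25A27 (0.48), SLC25A28 (0.49), SLC25A3 (0.061), SLC25A35 (0.35), SLC25A39 (0.45), SLC25A5 (0.35) and VDAC3 (0.20). After rescaling over nuclear protein-coding genes, the median log2 fold change of the members was -0.39 and the log2 ratio of the summed TPM was -0.43. It gave 2 higher among the shuttle enzymes. Signs changed for SLC25A26 (-0.062), SLC25A33 (-0.10), SLC25A42 (-0.078) and SLC25A6 (-0.0038). After removal of the length trend, 16 members were higher, 3 members were higher by at least 2-fold, 6 members were lower by at least 2-fold and the median log2 fold change of the members was -0.13. It gave 2 higher among the calcium uniporter partners, 3 higher and 3 lower among the other transporters, 2 higher and 2 lower among the VDAC and ADP/ATP carrier partners, and 7 higher and 11 lower among the shuttle enzymes. A turn of sign was found for SLC25A23 (0.34), SLC25A25 (0.19), SLC25A27 (0.30), SLC25A3 (0.33), SLC25A35 (0.12) and SLC25A39 (0.033). The log2 differences between groups in paired ratios became SLC25A6 to SLC25A5 0.60, SLC25A4 to SLC25A5 1.20, MPC1 to MPC2 0.52, VDAC1 to VDAC2 -0.23, SLC25A28 to SLC25A37 -1.09, SLC25A33 to SLC25A36 1.27 and SLC25A15 to SLC25A13 -1.07. With shFAM111B replicate 3 alone, an alternative chosen after seeing the data, the median log2 fold change of the members was -0.30. It gave 2 higher and 4 lower among the other transporters. The sign of the log2 fold change differed for SLC25A28 (0.31), SLC25A33 (-0.053), SLC25A39 (0.0071) and SLC25A42 (-0.026). Leaving out 1 library at a time gave 7 to 8 members higher and 25 lower, a median of -0.33 to -0.25 and a log2 ratio of the sum of -0.32 to -0.30, with 4 to 7 of the other transporters lower and 4 without control replicate 2. Members that were not called moved across zero, from -0.093 to 0.25 for SLC25A26, -0.35 to 0.20 for SLC25A27, -0.22 to 0.14 for SLC25A28, -0.061 to 0.13 for SLC25A33 and -0.027 to 0.082 for SLC25A42. The cause of these differences between settings was not tested. With 3 libraries a group no single ratio or sum can pass 0.05, and TPM give no depth by which low members such as SLC25A51 could be weighed.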

Other observations

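Genes that work with the members were described from lists in the same way, and their counts stand beside 21.1% higher and 50.9% lower of all genes tested, or 35.8% and 35.2% under median-of-ratios scaling. The TIM22 route inserts carrier proteins into the inner membrane, and of its 10 tested genes 4 were higher and 3 lower with the deposited TPM, while median-of-ratios scaling gave 8 higher. The small chaperones TIMM13 (57.2 ± 5.49 to 176 ± 28.9 TPM, log2 fold change 1.6) and TIMM8B (85.4 ± 4.11 to 184 ± 13.5 TPM, log2 fold change 1.10) had the largest rises (SD, n = 3 each, limma adjusted p = 2.91e-05 and 1.13e-05). AGK, a subunit of the TIM22 complex, went from 25.7 ± 1.01 to 6.98 ± 0.537 TPM (log2 fold change -1.74), and TOMM70, the outer membrane receptor for carrier precursors, from 69.4 ± 4.14 to 32.0 ± 1.22 TPM (log2 fold change -1.09), both with n = 3 each and limma adjusted p of 4.65e-06 and 9.34e-06. These 4 genes kept their sign under all 5 other scalings.

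Of 8 partners of the calcium uniporter, 1 was higher and 6 were lower, and 3 were lower under median-of-ratios scaling. SMDT1, the essential subunit EMRE that tethers the gatekeepers to MCU, was higher (log2 fold change 1.03, SE 0.164, limma adjusted p = 0.00104) where MCU was lower. LETM1, a cation exchanger of the inner membrane, and MICU3, a gatekeeper, had the largest falls (log2 fold changes -1.34 and -1.02). MICU3 was at 0.73, 0.81 and 0.70 TPM in shFAM111B libraries and passed the filter through the controls alone (2.26, 2.37 and 3.05 TPM).

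Among 11 other transporters of the mitochondrial membranes and carrier-like proteins, 1 was higher and 7 lower, against 5 higher and 3 lower under median-of-ratios scaling. MTCH2, a carrier-like protein of the outer membrane that inserts tail-anchored proteins, rose from 95.5 ± 4.29 to 205 ± 20.2 TPM (SD, n = 3 each, log2 fold change 1.09, limma adjusted p = 2.2e-05). ABCB10, an ABC transporter linked to haem synthesis, and SFXN1, the mitochondrial serine transporter, had the largest falls (log2 fold changes -1.51 and -1.48).

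Of 5 tested partners of the VDACs and ADP/ATP carriers, none was higher and 4 were lower (0 and 5 at an unadjusted p in limma), but under median-of-ratios scaling 1 was higher and 0 were lower. HK2, which docks on VDAC, was at 20.24, 18.18 and 15.41 TPM in control and at 6.34, 14.95 and 11.49 TPM in shFAM111B libraries (log2 fold change -0.73, limma adjusted p = 0.0454). That call was lost without a filter (adjusted p = 0.113), with the replicate block (adjusted p = 0.058), under 4 of the 5 other scalings, after removal of the length trend (log2 fold change 0.049) and without any 1 library except shFAM111B replicate 2 (adjusted p from 0.0551 to 0.128, limma). PPIF, cyclophilin D, was at a log2 fold change of -0.49.

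Of 23 tested enzymes of the shuttles that the carriers serve, 4 were higher and 17 lower, with 6 and 13 under median-of-ratios scaling and 8 and 10 with each library's median subtracted. CPT1A, which makes the acylcarnitine that SLC25A20 imports, fell from 20.4 ± 1.48 to 3.47 ± 0.258 TPM (SD, n = 3 each, log2 fold change -2.26, limma adjusted p = 3.56e-06), whereas SLC25A20 rose. MTHFD2, a mitochondrial folate enzyme, fell with the folate carrier SLC25A32 (log2 fold change -1.51). PDHA1, a subunit of pyruvate dehydrogenase, and CPS1, of the urea cycle, had the largest rises (log2 fold changes 0.76 and 0.53). These pairings of enzyme and carrier were noticed after the values were seen.

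The 7 letters that pair with the seed of the hairpin's antisense strand were in the annotated 3′ UTR of 13 of the 46 tested members (28.3%) and of 17.5% of 12036 genes. Of these 13 members, 6 (46.2%) were lower and 2 (15.4%) higher, against 70.5% and 10.4% of the 2102 genes with these letters, and the part of such matches in the results was not tested.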
